A study of Mus musculus with 4 samples.

Results

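Gm5483 and BC100530 are stefin A-like genes of the mouse, and both were found among the 3624 genes of the deposited count table, so they make up 2 of 3624 genes. They were chosen by name because their transcripts differed strongly between the genotypes in these same libraries. Their difference between genotypes is therefore given as a description, with no test. Stefins are small cytosolic members of the cystatin superfamily, which block papain-like cysteine proteases such as the cathepsins by a tight and reversible bond. Humans carry a single stefin A gene, known best from skin and from white blood cells, whereas the mouse carries a row of closely related copies on 1 chromosome. In mouse bone marrow the copies are known as transcripts of maturing neutrophils, cells that store proteases in their granules.

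Single cells were measured on the 10x Genomics Chromium platform in E14.5 fetal livers of C57Bl/6J mice, in cells sorted as Lin-Sca-cKit+Cd34+. This gate keeps progenitors with the stem cell factor receptor Kit and with CD34, and removes cells with Sca1 or with markers of mature blood lineages. Wild-type embryos gave the libraries F and I. Gata2-77-/- embryos, which lack the -77 enhancer of the transcription factor gene Gata2 on both alleles and are called enhancer-deleted here, gave A and B, so that n = 2 libraries per genotype. No other allele and no treatment is named for either group. The library letters are those of the deposited files and could not be tied to sample numbers. If libraries of a genotype were not separate embryos, the tests would measure the spread between libraries only.

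The libraries held 1938 to 3042 cells and 16837863 to 40117680 UMIs (unique molecular identifiers, which count captured transcripts). Wild-type cells were deeper, with medians of 12826.5 (F) and 17437.5 (I) UMIs per cell against 7492 (A) and 7087 (B). Levels are counts per 1000000 (CPM), with the UMIs of all panel genes in the same cells as the total. Gata2 stood at 26.3 (F), 23.2 (I), 7.48 (A) and 6.73 (B) CPM, and it fell in the enhancer-deleted libraries (log2 fold change -1.86, SE 0.19, edgeR adjusted p = 0.00792), with an adjusted p of 0.0545 without library A. Of the sort markers, Kit lay at 39.6 to 45.2 CPM in all 4 libraries, and Cd34 at 186 and 210 in the wild type against 306 and 333. No marker of keratinocytes, a common site of stefin A, was among the measured genes.

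By GENCODE M21 on mm10, Gm5483 (ENSMUSG00000079597.2) covers bases 36184212 to 36188111 of chromosome 16 on the + strand. BC100530 (ENSMUSG00000071561.2) covers bases 36359382 to 36367748 on the - strand. Each coding transcript has 3 exons and 97 codons, and the genes lie 171.3 kb apart. They belong to a row of 11 stefin A-like genes, 10 of them annotated as coding, that spans 335.4 kb. Of these, 5 were in the panel, namely Gm5483, BC100530, Stfa1, Stfa3 and Stfa2l1. RefSeq calls the members Cstdc4 and Cstdc5. The antisense gene Gm15845 overlaps BC100530 on the other strand and was not in the panel.

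The 250 bases before the start of Gm5483 (RefSeq, GRCm38.p6, chr16:36183962-36184211, + strand) are shown because this gene had the widest genotype difference of the pair. The capitals mark the TATA-like run TTTAAAA.
Gm5483: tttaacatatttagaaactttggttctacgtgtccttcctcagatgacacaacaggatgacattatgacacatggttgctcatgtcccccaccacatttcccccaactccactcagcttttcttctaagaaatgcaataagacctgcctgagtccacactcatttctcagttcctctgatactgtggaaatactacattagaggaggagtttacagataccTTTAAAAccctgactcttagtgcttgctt

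The same bases before BC100530 were 86.80% identical to those before Gm5483 over 197 aligned bases, and 96.07% identical to those before Stfa1 over 229. For BC100530 and Stfa1, GENCODE places the gene start 178 and 197 bases upstream of the RefSeq start, so only 30 bases of each are printed, as a comparison of the copies. The longest run that all 5 measured genes share before their starts, of 12 bases, holds the TATA-like element, and 7 of the 9 genes of the row matched in the table of upstream sequences have it, as have 0.0335% of 32851 mouse upstream windows of 250 bases on either strand. The next longest, of 11 bases, ends each window printed here, and was found in 5 of the 9 genes and in 0.067% of windows. The capitals mark AGATAA, a word bound by GATA factors.
Gm5483: tactgtggaaatactacattagaggaggag
BC100530: tatttcggAGATAAgacactagaggaggag
Stfa1: taatgtggAGATAAgacactagaggaggag
Stfa3: tattgcagAGATAAgacattagaggaggag
The windows lie at chr16:36184141-36184170 (+), chr16:36367592-36367621 (-), chr16:36277076-36277105 (+) and chr16:36455437-36455466 (-). AGATAA or its reverse TTATCT was found once in the 250 bases before the RefSeq start of BC100530, 2 times each before Stfa1 and Stfa3, and not before Gm5483 or Stfa2l1. It occurs in 9.99% of all such windows. TTTAAAA or TTTTAAA occurs in 8.1% and was found once before each of the 5 genes. The C/EBP word TTGCNNAA or TTNNGCAA (9.56% of windows) was found once each before BC100530 and Stfa1 and not before Gm5483. These matches describe letters only, and binding was not measured here.

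The copies are so alike that reads can fit more than 1 of them. The coding transcripts of BC100530 and Stfa1 were 98.1% identical over 421 aligned bases, whereas that of Gm5483 was 83.05% identical to BC100530 and 81.88% to Stfa1. Of the 90-base windows in the last 300 bases of the BC100530 transcript, near its 3′ end, 41.71% occurred unchanged in BC117090 or Stfa1, and 78.67% did so with up to 2 mismatches. For Gm5483, 21.33% occurred unchanged in 2010005H15Rik, and 36.97% with up to 2 mismatches. Neither BC117090 nor 2010005H15Rik was in the panel. How reads with several matches were counted is not given in the sources used here, so the split of counts between BC100530, Stfa1 and these copies is uncertain. Stfa3 had no such window in the annotated transcripts.

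Summed over all cells, Gm5483 had 9750 and 3647 UMIs in the wild-type libraries F and I, and 36 and 34 in the enhancer-deleted libraries A and B. That is 243 and 108 CPM against 2.14 and 1.71, with both wild-type libraries far above both others. The means were 175 ± 95.8 and 1.92 ± 0.305 CPM (SD, n = 2 each), a 91.2-fold difference. The fitted log2 fold change was -6.58 (SE 0.59). The lower wild-type library still lay 50.3-fold above the higher enhancer-deleted one, while the wild-type libraries differed 2.26-fold from each other.

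BC100530 had 28041 and 13618 UMIs in F and I against 452 and 308 in A and B. Its levels were 699, 402, 26.8 and 15.5 CPM, so the groups again did not overlap. The means were 550 ± 210 and 21.2 ± 8.05 CPM (SD, n = 2 each), a 26.0-fold difference with a fitted log2 fold change of -4.75 (SE 0.43). In every library BC100530 had more UMIs than Gm5483, and the ratio of the genes was not the same. It was 2.88 in F and 3.73 in I, but 12.6 in A and 9.06 in B. These ratios compare UMIs of transcripts of unlike length, 414 and 619 bases, and may carry the counting limit above.

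**Figure D1:**
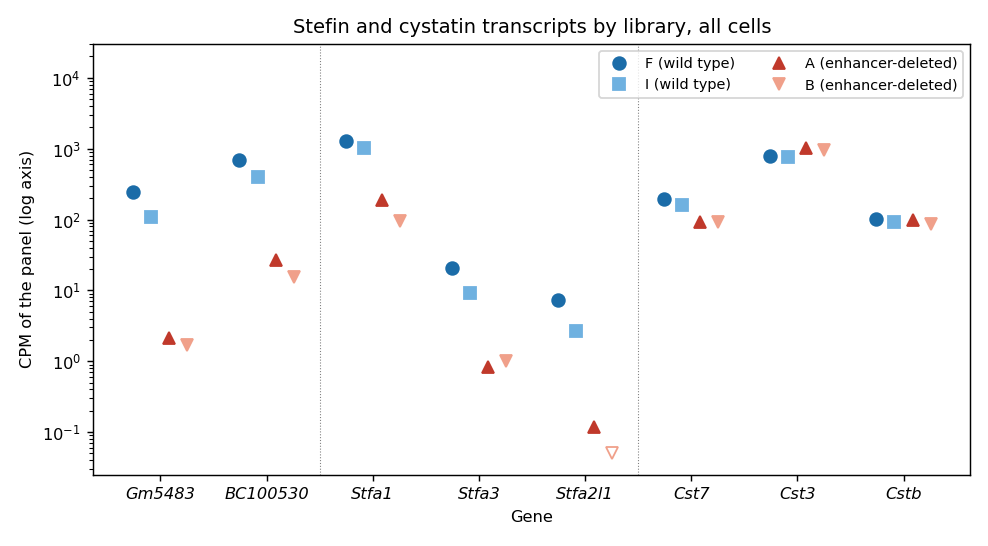
CPM of the panel (log axis) of the 8 measured stefin and cystatin genes over all cells of each library, 1 point per library, with no averaging. The members (left) and their stefin A-like neighbours (middle) lie lower in the 2 enhancer-deleted libraries, whereas Cst3 and Cstb lie close together in all 4; the open mark shows library B with 0 Stfa2l1 UMIs.

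The members were carried by a minority of cells even in the wild type. At least 1 Gm5483 UMI was found in 727 of 3042 cells of F (23.9%) and 276 of 1938 cells of I (14.2%). The enhancer-deleted libraries had 19 of 2235 (A, 0.850%) and 10 of 2745 (B, 0.364%). After each cell was thinned to 4346 UMIs, with 140 wild-type and 855 enhancer-deleted cells left out as too shallow, the shares were 15.1% (95% exact interval 13.8 to 16.4), 7.86% (6.69 to 9.16), 0.708% (0.377 to 1.21) and 0.262% (0.0963 to 0.570). The gap between the genotypes thus remained at a matched depth. BC100530 was more widespread, in 44.2%, 34.2%, 6.04% and 4.15% of cells of F, I, A and B, and in 28.6%, 19.96%, 5.01% and 2.75% after thinning. Intervals cover counting error only.

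Most transcripts came from few cells. In F, 90% of the Gm5483 UMIs lay in 215 cells (7.07% of the library), and in I in 87 cells (4.49%). Cells with at least 10 Gm5483 UMIs numbered 194 in F and 81 in I, and they held 88.3% and 88.8% of its UMIs. The enhancer-deleted libraries had 0 (A) and 1 (B) such cells. For BC100530 the numbers were 438, 196, 10 and 8 cells. The highest cell of F, I, A and B held 168, 159, 7 and 12 Gm5483 UMIs, and 289, 304, 34 and 33 BC100530 UMIs. High cells were thus missing for Gm5483 in the enhancer-deleted libraries but for 1 cell, and rare for BC100530.

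**Figure D2:**
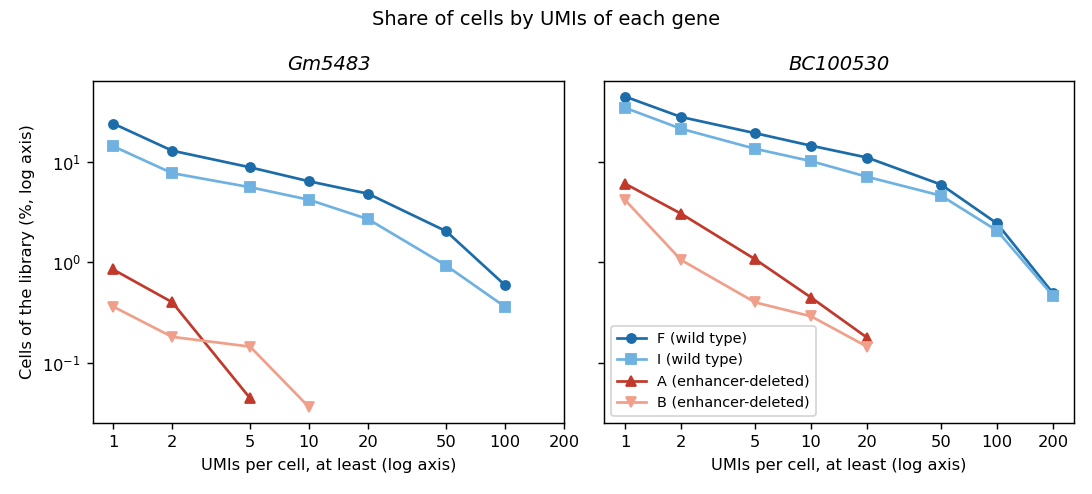
Share of cells of each library (%, log axis) with at least the given number of UMIs (log axis) of Gm5483 (left) or BC100530 (right), 1 line per library. Wild-type lines reach 100 UMIs for Gm5483 and 200 for BC100530, whereas enhancer-deleted lines end at 10 or fewer for Gm5483 and at 20 for BC100530. Counts are not thinned, and wild-type cells were deeper.

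To see which cells carried the genes, cells were clustered without the 5 stefin A-like genes, so that these did not shape the clusters. Neutrophil-like cells, named from markers such as the granule genes Camp and Elane, formed 2 clusters. Cluster 13 was led by Camp, S100a9 and Wfdc21, and cluster 14 by Hsd11b1, Gstm1 and Elane. Together they held 943 and 386 cells in F and I (31.0% and 19.9%) but 51 and 30 in A and B (2.28% and 1.09%). These cells held 96.8% (F), 96.4% (I), 80.6% (A) and 88.2% (B) of all Gm5483 UMIs. They held 96.5% and 94.1% of the BC100530 UMIs in the wild type, but 57.3% and 63.3% in A and B. No doublet caller was run, and the deposited table holds no barcodes, so barcodes shared between libraries were not analysed here.

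Gm5483 was concentrated in the Camp-led cluster more than BC100530 and Stfa1 were. Cluster 13 held 83.9% of Gm5483 UMIs in F and 72.3% in I, 72.4% and 59.0% of those of BC100530, and 54.4% and 36.4% of those of Stfa1. In F and I, Gm5483 stood at 1886 and 1275 CPM in cluster 13 and at 165 and 208 in cluster 14. BC100530 stood at 4681 and 3887 in cluster 13 and at 885 and 1129 in cluster 14. Stfa3 stood at 150 and 83.7 in cluster 13 and at 15.7 and 17.2 in cluster 14. The scarce Stfa2l1, at 64.3 and 38.7 against 1.05 and 1.89, lay further apart than Gm5483, so this trait was not particular to Gm5483. Going from cluster 14 to 13, the ratio of BC100530 to Gm5483 UMIs went from 5.37 to 2.48 in F and from 5.42 to 3.05 in I.

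**Figure D3:**
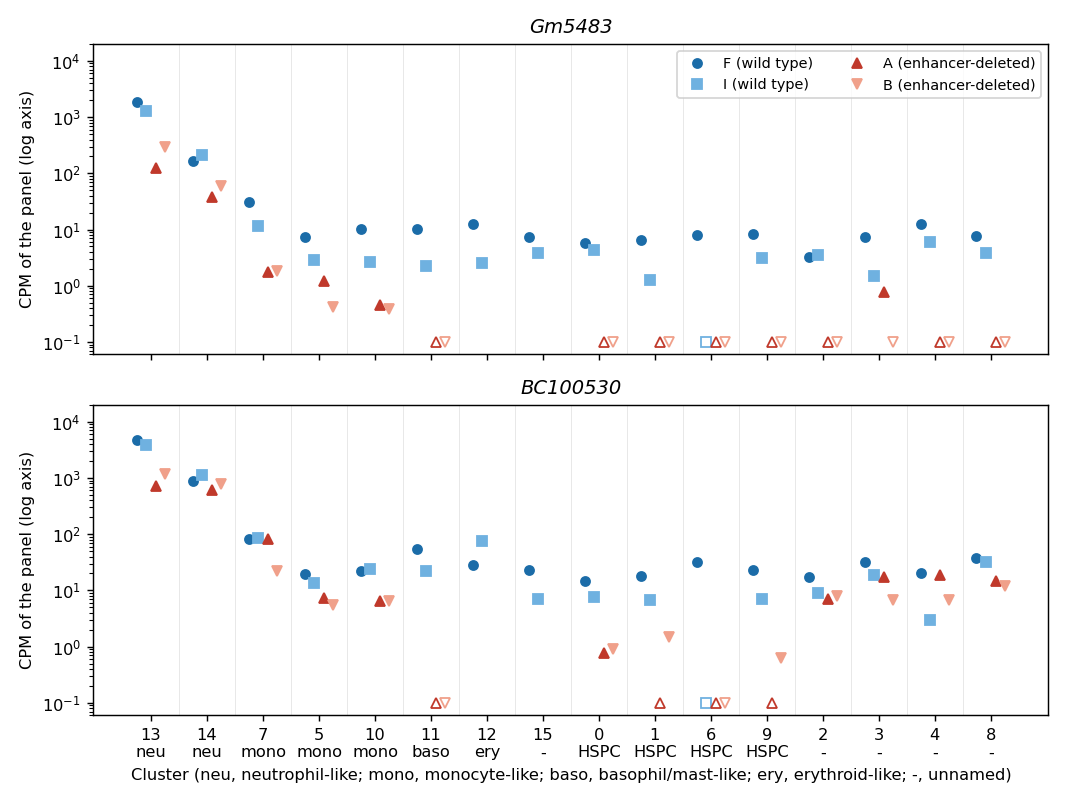
CPM of the panel (log axis) of Gm5483 (top) and BC100530 (bottom) in each cluster, 1 point per library with at least 10 cells there, and open marks for 0 UMIs. Both genes are highest in the neutrophil-like clusters 13 and 14, and cluster 7 follows with 11.8 to 30.7 CPM of Gm5483 and 82.3 to 84.1 of BC100530 in the wild type.

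Outside the neutrophil-like cells the levels were low. In library F, UMIs of both genes were found in every cluster with at least 10 cells, whereas Gm5483 was at 0 UMIs in most further clusters of A and B. HSPC-like cells (hematopoietic stem and progenitor cells) gave 6.70 and 2.78 CPM of Gm5483 in F and I. There 7.52% and 3.82% of cells had a UMI, at median depths of 11544.5 and 14149 UMIs. After thinning these shares were 2.43% and 0.935%. In A and B the HSPC-like cells gave 0 UMIs of Gm5483 in 816 and 1025 cells. BC100530 gave 18.0, 6.95, 0.334 and 0.983 CPM there. The ratio of BC100530 to Gm5483 UMIs in HSPC-like cells and over the whole library was 2.69 and 2.88 in F, and 2.50 and 3.73 in I, where the HSPC-like cells held 45 and 18 UMIs. Whether levels of this size in wild-type cells were background or expression was not tested.

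Cluster 7, led by C1galt1c1, Nrg1 and Ctsc and named monocyte-like, stood above the HSPC-like cells for BC100530 in each library. It had 82.3, 84.1, 80.7 and 22.0 CPM in F, I, A and B, and 54.7%, 53.5%, 27.1% and 14.05% of its cells had a UMI (21.4%, 22.4%, 18.8% and 9.73% after thinning). Library A lay as high as the wild type here and library B lower, so the groups differed by less than libraries A and B did from each other. Gm5483 in the same cells was at 30.7 and 11.8 CPM in F and I, with 2 UMIs each in A and B. Stfa1 UMIs outnumbered those of BC100530 9.17-fold in F, 12.2-fold in I, 10.0-fold in A and 21.8-fold in B, against 1.39-fold and 1.56-fold in cluster 13 of F and I. Neutrophil genes were also present in cluster 7, with Elane at 4402, 3206, 2815 and 2697 CPM, S100a8 at 1420, 1390, 748 and 468, and Cebpe at 132, 182, 82.5 and 102 in F, I, A and B. Each was lower in A and B, and their part in the BC100530 level was not tested. Given the likeness of the 2 transcripts, whether part of these BC100530 UMIs came from Stfa1 was not tested.

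The other clusters stayed lower. In the 13 further clusters with at least 10 cells, Gm5483 ran from 3.27 to 12.5 CPM in F and from 0 to 6.05 in I. In the 11 such clusters each of A and B it was at most 1.21 and 0.416 CPM, with 8 and 9 clusters at 0 UMIs. BC100530 ran from 14.6 to 54.7 in F, and reached 77.1 in I (in the 37 cells of the erythroid-like cluster), 18.7 in A and 11.8 in B.

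The difference between the genotypes over all cells had 2 parts that could be read separately, the share of neutrophil-like cells and the level within them. The mean share of the class was 25.5% ± 7.84 over the wild-type libraries and 1.69% ± 0.841 over the others (SD, n = 2 each). Within these cells Gm5483 was at 789 and 558 CPM in F and I, against 73.2 and 142 in A and B, which rest on 29 and 30 UMIs. The means were 674 ± 163 and 108 ± 49.0, and the log2 ratio was -2.64. BC100530 was at 2261 and 2034 against 654 and 926 (means 2148 ± 161 and 790 ± 193, log2 ratio -1.44). Stfa1 was at 3941 and 4201 against 2363 and 2099. For each of these 3 genes the groups did not overlap, and among them the gap was widest for Gm5483. Stfa2l1 and Stfa3 did not overlap within the class either, with log2 ratios of -2.91 and -1.33. The Stfa2l1 gap was thus wider than that of Gm5483, but this gene had only 2 (A) and 0 (B) UMIs over all cells. The share of other panel genes that separate in this way was not counted. With 2 libraries per genotype, separation alone carries little weight. The same holds for every lack of overlap given in this report. Camp, which marks later granule formation, moved with the stefin A-like genes, at 1194 and 634 against 50.5 and 176 CPM, and its part in the difference was not tested. In B, 1 cell held 36 of the 37 Camp UMIs of the class and 12 of the 30 Gm5483 UMIs, and without it Camp was at 4.90 and Gm5483 at 88.2 CPM.

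The level within the class also depended on which cells were taken. In cluster 13 the log2 ratio was -2.93 for Gm5483 and -2.16 for BC100530, on 24 and 12 enhancer-deleted cells, with 12 of the 22 Gm5483 UMIs of B in 1 cell. In cluster 14 it was -1.94 and -0.55, where BC100530 had 885, 1129, 601 and 779 CPM. In the same cluster 14, Stfa1 (2472, 3295, 2496 and 2078 CPM) and Stfa3 (15.7, 17.2, 16.9 and 37.1) overlapped between the genotypes. The members did not, although Gm5483 rests on few UMIs there in A and B. Stfa2l1 (1.05, 1.89, 0 and 0), Cebpe (495, 517, 300 and 386), Elane (8768, 7853, 6443 and 6872) and Camp (152, 122, 25.4 and 0) did not overlap either. S100a8 overlapped, and S100a9 was higher in A and B (1771, 2095, 2289 and 3607). The lack of overlap was thus not particular to the members. Cluster 13 made up 45.2%, 41.2%, 47.1% and 40.0% of the class in F, I, A and B, where A and B had 51 and 30 class cells. Like shares do not mean like cells. Within cluster 13, Camp was at 3025, 1683, 87.7 and 488 CPM, S100a9 at 12947, 7409, 2304 and 4366, and Cebpe at 667, 660, 313 and 317. Whether the mix of stages differed between the genotypes was not tested. After thinning, BC100530 was detected in 69.9%, 70.4%, 63.3% and 56.0% of neutrophil-like cells, and in cluster 14 in 57.5%, 66.1%, 73.1% and 64.3%, where the groups overlapped. Gm5483 was detected in 40.1%, 32.7%, 20.4% and 16% of neutrophil-like cells. The detection of BC100530 thus lay closer between the genotypes than its level, but a share of cells is bounded and a level is not. Stfa1 behaved alike, detected in 93.2%, 93.5%, 89.8% and 100% of neutrophil-like cells, so this was not particular to BC100530. Among cells with at least 1 Camp UMI, of which A and B had 10 and 3, the log2 ratios were -1.31 and -1.02. In B these values rest on 1 cell, which held 12 of its 12 Gm5483 and 33 of its 34 BC100530 UMIs. With the coarser clusters of Leiden resolution 0.5 they were -4.06 and -2.60.

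Camp encodes the cathelicidin antimicrobial peptide of secondary granules, which form after the primary granules with Elane (neutrophil elastase) and Mpo (myeloperoxidase). In F, Gm5483 stood at 45.0, 169, 1344, 2574 and 6688 CPM in cells with 0, 1 to 3, 4 to 15, 16 to 63 and at least 64 Camp UMIs. In I it stood at 23.3, 160, 1774, 2259 and 6593. BC100530 stood at 200, 711, 4666, 6568 and 13487 in F and at 138, 877, 6532, 8856 and 14696 in I. Levels were higher in each higher Camp range in both libraries, for both genes. The last range held 59 and 19 cells, and the fourth held 63 and 14. Elane was higher with Camp over the lower ranges only, at 2425, 4772, 9845, 8329 and 8102 CPM in F and at 1686, 4599, 9084, 8528 and 7422 in I.

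**Figure D4:**
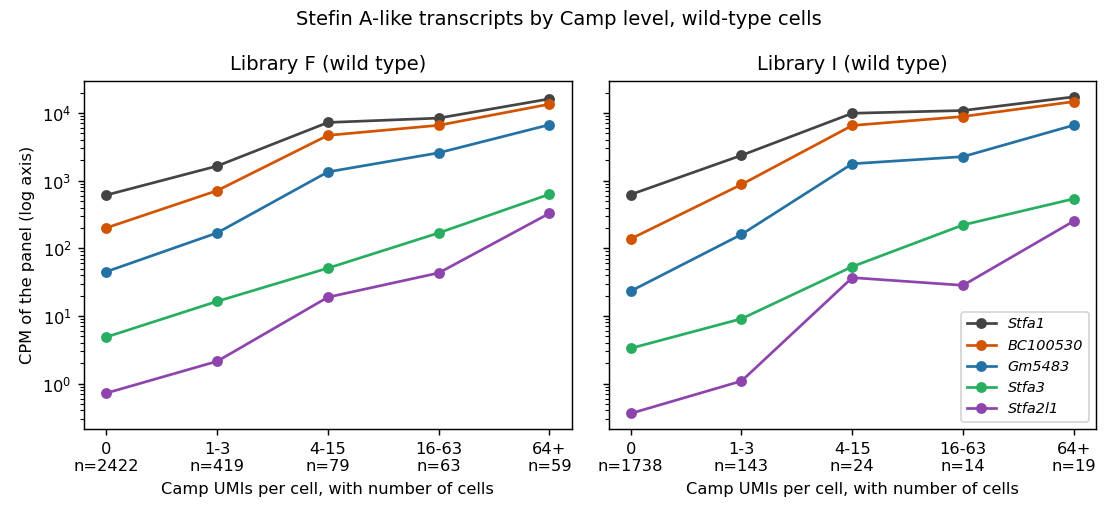
CPM of the panel (log axis) of the 5 measured stefin A-like genes in wild-type cells grouped by their Camp UMIs, in library F (left) and library I (right), with the number of cells under each group. The order Stfa1, BC100530, Gm5483, Stfa3, Stfa2l1 holds in each group, and all 5 lines end higher than they start.

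The genes were nested in the cells that carried them. In cells thinned to 4346 UMIs, 81.9% (F) and 84.0% (I) of cells with a Gm5483 UMI also had BC100530, whereas 43.1% and 33.1% of cells with BC100530 had Gm5483. With Stfa1 the gap was wider, since 89.1% and 91.3% of Gm5483 cells had Stfa1 and 29.3% and 17.1% of Stfa1 cells had Gm5483. Of the Gm5483 cells 48.2% and 44.7% had a Camp UMI, and 62.3% and 65.7% of Camp cells had Gm5483. Cells with a Gm5483 UMI rarely had Gata2, at 13 of 442 cells in F and 2 of 150 in I. More abundant transcripts are detected more often, so part of this nesting follows from the levels.

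Cells were then grouped by their Stfa1 UMIs. In thinned cells with 10 to 29 Stfa1 UMIs (352, 174, 28 and 11 cells of F, I, A and B), Gm5483 stood at 407, 163, 32.9 and 293 CPM, and BC100530 at 1774, 1158, 501 and 1443. Stfa1 itself was not level within this range, at 4056, 3953, 2860 and 3326 CPM. Library A lay below the wild-type libraries for both genes, and library B between them, but in B the highest cell for each gene held 8 of 14 Gm5483 UMIs and 22 of 69 BC100530 UMIs. Without that cell, library B was at 138 CPM of Gm5483 and 1081 of BC100530, below both wild-type libraries. In cells with 4 to 9 Stfa1 UMIs (266, 173, 99 and 48 cells) Gm5483 was at 46.7, 22.6, 6.97 and 4.79 CPM and BC100530 at 315, 185, 112 and 67.1. In this lower range the groups did not overlap, although A and B rest on 3 and 1 Gm5483 UMIs. At 30 or more Stfa1 UMIs there were 189 and 89 wild-type cells but 6 and 1 cells in A and B.

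**Figure D5:**
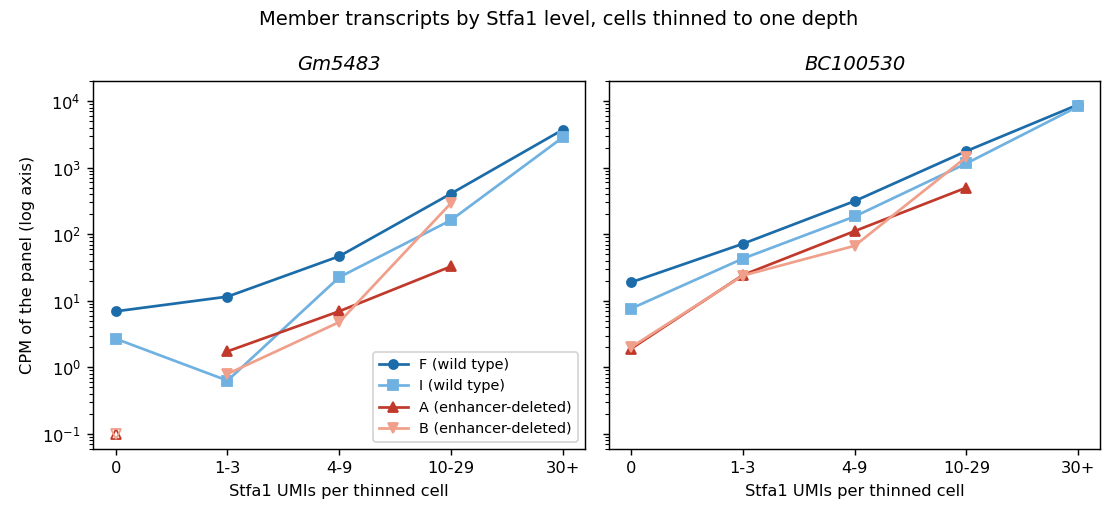
CPM of the panel (log axis) of Gm5483 (left) and BC100530 (right) in cells thinned to 4346 UMIs and grouped by their Stfa1 UMIs, 1 line per library, drawn for groups with at least 10 cells; the open marks are 0 UMIs. All lines end higher than they start, and at 10 to 29 Stfa1 UMIs library A lies below F and I, and library B between them. With the highest cell of every library left out (not drawn), library B lies close to library I, just below it.

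The transcripts most like the members across cells were sought within each wild-type library (3042 and 1938 cells), by the mean Pearson r of log-scaled levels over 3616 other genes. These values are descriptions, since all cells of a library share its preparation and the levels follow its mix of cell types. For Gm5483 the closest were BC100530 (r = 0.842), S100a9 (0.835), Camp (0.793), Fcnb (0.737), Pglyrp1 (0.722), S100a8 (0.700), Stfa3 (0.671) and Stfa1 (0.664). For BC100530 they were S100a9 (0.897), S100a8 (0.852), Gm5483 (0.842), Stfa1 (0.836), Pglyrp1 (0.833), Fcnb (0.791), Camp (0.691) and Clec4a2 (0.681). S100a8 and S100a9 form calprotectin, Fcnb is a ficolin, and Pglyrp1 binds bacterial cell wall. Elane, of the primary granules, ranked 36 for Gm5483 and 17 for BC100530. Prg2, the major basic protein of eosinophils, was near 0 for both (0.04 each), and Gata2 was at -0.11 and -0.16. At the other end lay Mif (-0.50) for Gm5483 and Tmsb10 (-0.58) for BC100530.

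Over all cells, 321 of 3622 tested genes passed the edgeR threshold, which is 8.86% of genes, with 221 lower (6.10%) and 100 higher (2.76%) in the enhancer-deleted libraries. The list of stefins and cystatins held 28 symbols, in which some genes, the members among them, appear under 2 names. Of the list, 8 genes were measured. Of these 6 fell, 0 rose and 2 did not pass, with a median log2 fold change of -3.57 against 0.00 over all genes tested. The 2 members are among the 6 and were chosen for this. Of the 6 other genes, 4 fell and 0 rose, with a median of -2.04. Stfa1 fell from 1296 and 1015 CPM to 188 and 95.1 (log2 fold change -3.07, SE 0.37, edgeR adjusted p = 0.0111). Stfa3 fell from 20.5 and 9.11 to 0.831 and 1.00 (-4.07, edgeR adjusted p = 0.0150). Stfa2l1 fell from 294 and 90 UMIs to 2 and 0 (edgeR adjusted p = 0.0288), where 0 UMIs allow up to 0.151 CPM. Cst7 (cystatin F, which acts in the lysosomes of immune cells) fell 1.94-fold, from 196 and 158 to 90.9 and 92.1 (edgeR adjusted p = 0.0111). The broadly expressed inhibitors Cst3 (800, 752, 1030 and 949 CPM, edgeR adjusted p = 0.133) and Cstb (stefin B; 100.2, 93.5, 97.6 and 85.3, edgeR adjusted p = 0.4998) did not pass. Fewer genes of the list passed without library A or without B. Stfa3, Stfa2l1 and Cst7 missed the threshold in both cases, and without A not both members passed it. The log2 fold changes without A and without B were -3.70 and -2.63 for Stfa1, -6.78 and -6.38 for Gm5483, and -5.26 and -4.38 for BC100530.

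The cysteine cathepsins, which stefins block, passed the test in neither direction. Of 6 measured cysteine cathepsins, 0 passed the edgeR test and the median log2 fold change was -0.14, with 1 at an unadjusted p under 0.05 (Ctsb). Ctsb was at 86.2, 80.4, 69.4 and 64.1 CPM in F, I, A and B (edgeR adjusted p = 0.0723) and passed with library totals as the scale (0.0444) and in the DESeq2 Wald test (0.00221). Ctss was at 7.03, 9.88, 13.6 and 13.1 CPM, and Ctsc at 76.8, 118, 80.0 and 64.6.

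Most measured genes of the neutrophil granule lists fell. These lists are broader than granule contents and hold, for example, the receptor Ltb4r1. Of 10 measured genes of the primary granule list 10 fell, with a median log2 fold change of -1.39. Ms4a3 went from 632 ± 97.5 to 208 ± 10.6 CPM, Mpo from 1529 ± 26.2 to 860 ± 114 and Cd63 from 409 ± 76.6 to 147 ± 5.67 (SD, n = 2 each). Of 13 measured genes of the secondary granule and calprotectin list 8 fell and 0 rose, with a median of -2.65. By smallest p these were Ltb4r1, a leukotriene receptor (4.68-fold), Hp, haptoglobin (2.98-fold), and Anxa1 (1.99-fold). Camp fell 140-fold, from 362 and 120 CPM to 1.48 and 1.96 (edgeR adjusted p = 0.00855), S100a9 22.3-fold and S100a8 12.7-fold, while Fcnb fell 13.7-fold. The granule gene Lcn2 was at 20.9, 7.70, 2.79 and 2.01 (edgeR adjusted p = 0.0570), and Ngp at 24.1, 1.15, 0 and 0 (0.143). Ifitm6 (12.7, 10.8, 19.3 and 17.2), Lyz2 (519, 426, 516 and 378) and Cybb (23.3, 22.2, 28.3 and 20.98) did not pass either. Of 10 regulators and receptors 3 fell and 2 rose, at a median of -0.07. Cebpe, a transcription factor needed for secondary granules, fell 7.51-fold, from 215 and 167 to 25.8 and 25.0 (edgeR adjusted p = 0.00312). Irf8, a regulator of monocytes, rose from 153 and 141 to 255 and 257, and the receptor Csf2ra fell from 38.8 and 35.8 to 23.7 and 22.9. Without library A, 2 primary and 4 secondary granule genes fell, Irf8 and Csf2ra missed the threshold, as did Elane, Cd63, Camp (edgeR adjusted p = 0.0750), S100a9 (0.0708) and Fcnb (0.0783). Without library B, 6 and 7 fell, and Fcnb (0.0708) and Csf2ra (0.113) missed it. These lists share the neutrophil-like cells with the members, so they are no separate evidence on the stefins.

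The other measured genes near the row were compared to see whether the whole region was lower. Of 10 panel genes within 2 megabases that are not stefins, 1 fell and 0 rose, and their log2 fold changes ran from -0.36 to 0.19. The one that fell was Hacd2, an enzyme of fatty acid elongation, at 65.7 ± 0.102 and 53.7 ± 0.942 CPM (edgeR adjusted p = 0.0389). It missed the threshold when any of the 4 libraries was left out. Fam162a (301, 271, 276 and 296 CPM in F, I, A and B) and Ccdc58 (means of 114 ± 5.14 and 134 ± 15.3) on one side of the row, and Golgb1 (57.3 ± 4.24 and 58.0 ± 2.93) and Hcls1 (45.9 ± 3.11 and 51.0 ± 3.53) on the other, did not pass.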

How the data were processed

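The deposited table holds counts, whole-number UMIs of 3624 genes in 9960 cells with no normalization, and other deposited files name its genes and give each cell's library and genotype. Per the submitters' processing notes, Cell Ranger 2.0.2, Seurat 2.3.4 and mm10 were used. How genes and cells were chosen for the table is not given in the sources used here, and cells numbered 4980 per genotype. The members and gene lists were chosen with earlier results of these data known.

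UMIs were summed per library and fitted with edgeR 4.0.16 (R 4.3.3; filterByExpr, TMM, quasi-likelihood, two-sided, Benjamini-Hochberg over 3622 genes, threshold 0.05), with genotype as the only term. A fold is a ratio of mean CPM, and SE that of the fitted log2 fold change (negative is lower in enhancer-deleted libraries). The smallest exact two-sided permutation p for 1 value is 0.333 with this number of libraries. On simulated data the fit called 100 of 100 genes changed 2-fold, 94 of 100 changed 1.5-fold and 14 of 3424 unchanged genes. The simulation gave all genes 1 common dispersion (biological coefficient of variation 0.0924) and changed only well-counted genes. It does not show the recovery of genes that vary more between libraries of a genotype, as the members and Camp did.

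Clusters came from scanpy 1.11.5 (1000 variable genes without the 5 stefin A-like genes, 30 principal components, 15 neighbours, Leiden resolution 1.0). A class was named where at least 3 of its markers, each in 10% of the cluster's cells, were 2-fold above other cells. Thinning drew 4346 UMIs per cell, the 10th percentile. Transcripts and positions came from GENCODE M21 and upstream bases from RefSeq (GRCm38.p6), with the members matched to RefSeq through GENCODE's Entrez Gene links. Sequences were aligned with Biopython 1.88. Named genes were the members, Gata2, all measured stefins and cystatins, fixed granule genes, the 8 genes most like each member, up to 3 genes per list by smallest p, 3 leading genes per cluster and neighbours within 2 megabases. Kit, Cd34, Prg2, Mif, Tmsb10, Ifitm6, Lyz2 and Cybb were added as examples after their values were seen, as were Fam162a, Ccdc58, Golgb1 and Hcls1 among the neighbours. Alternatives were other scalings, the DESeq2 1.42.0 Wald test, no filter, thinned cells and leaving out each library.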

Additional observations from a re-analysis of the deposited data

How the results depend on the processing

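The fitted log2 fold changes of the members kept their direction in all 9 alternatives. For Gm5483 the 5 alternatives of scaling, test, filter and depth gave -6.66 to -6.52, and leaving out a library -7.08 to -5.84. For BC100530 they gave -4.94 to -4.71 and -5.26 to -4.28. The difference in the thinned share of cells with a UMI, 10.98 percentage points for Gm5483 and 20.4 for BC100530, was 18.5 and 34.1 without thinning and 15.2 and 27.1 when cells were thinned to 9777 UMIs. Leaving out a library, chosen after seeing the data, gave 7.37 to 14.6 and 16.1 to 24.7. Within neutrophil-like cells the log2 ratios of Gm5483 (-2.64) and BC100530 (-1.44) were -1.31 and -1.02 in cells with a Camp UMI, where 1 cell held 12 of the 12 Gm5483 UMIs of B, and -4.06 and -2.60 at resolution 0.5. Split after seeing the data, they were -2.93 and -2.16 in cluster 13 and -1.94 and -0.55 in cluster 14. Without the cell of each library with the most Camp UMIs, also chosen after seeing the data, they were -3.09 and -1.56. Leaving out a library gave -3.20 to -2.24 and -1.72 to -1.21. The cause of these shifts was not tested.

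Genes past the threshold numbered 734 in the DESeq2 Wald test (427 lower, 307 higher) against 321 (221 and 100), and 66 to 291 without 1 library (56 to 234 lower, 10 to 73 higher). Without 1 library, 2 to 6 stefins and cystatins, 2 to 10 primary granule, 4 to 10 secondary granule and 1 to 3 regulator genes fell, and 0 to 2 regulators rose. With library totals and in the Wald test 1 stefin or cystatin rose (Cst3, adjusted p 0.0426 and 0.0167) and 1 cathepsin fell, and in the Wald test 1 secondary granule gene rose. With 1 library left in a genotype, it is assumed to vary like the other genotype's libraries.

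No paired analysis was possible because the cells carry library letters that match no sample number. Depth limits Gm5483 in the enhancer-deleted libraries, where 3 UMIs correspond to 0.178 (A) and 0.151 CPM (B).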
